A study of Mus musculus with 2 samples.

Results

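Canonical Wnt targets and secreted Wnt antagonists were examined in cultured mouse neural retinal progenitor cells (mNRPCs) and in retina tissue. The genes were 10 of the 31253 named genes in the deposited table, and were chosen by name. The 5 targets of β-catenin were Axin2, Lef1, Tcf7, Nkd1 and Rnf43. The 5 secreted antagonists were Sfrp1, Sfrp2, Sfrp5, Dkk3 and Frzb. RNA sequencing had been performed on 1 library of each group. The mNRPC library came from C57BL/6 cells at passage 24, which by the study's methods were isolated from adult neural retina and grown with the growth factor bFGF and with CHIR99021, which inhibits the kinase GSK3. The retina library came from C57BL/6 retina tissue, for which the labels name no treatment and no age. Whether animals were pooled is not given in the sources used here. With 1 library a group there is no spread between replicates, no test between the groups was made, and the group cannot be told apart from the library.

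In the canonical Wnt pathway, GSK3 marks β-catenin for degradation within a complex built on Axin and APC. When a Wnt ligand or a GSK3 inhibitor stops this step, β-catenin enters the nucleus and binds the DNA-binding factors of the TCF/LEF family. Several of the genes it induces act back on the pathway, among them Axin2, Nkd1 and Rnf43, while Lef1 and Tcf7 encode TCF/LEF factors themselves. The secreted frizzled-related proteins bind Wnt ligands outside the cell, and the Dickkopf proteins act mostly on the LRP co-receptors. In the retina, Dkk3 is known from progenitors and from Müller glia.

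Values were FPKM, which scale the fragments of a transcript by its length and by the size of the library, and were summed over the transcripts of a gene. The FPKM values of all transcripts summed to 616860 for mNRPCs and to 432256 for retina, and the depth estimated from the lowest values was 6.47e+06 and 5.07e+06 fragments. At this depth, 3 fragments of a transcript of 2000 bp correspond to 0.232 FPKM in mNRPCs and 0.296 FPKM in retina. Log2 ratios compare mNRPCs with retina after adding 1 to each FPKM value, and so they understate differences of low genes. Genes with at least 1 FPKM in a library were compared, and a gene was called higher or lower from 2-fold on this scale. Intervals of 95% were exact binomial intervals on estimated fragments and cover counting error only. For shares within a family of genes, a gene's fragments were taken as its FPKM share of the family's estimated fragments. Of 6 progenitor genes 4 were higher in mNRPCs and 2 within 2-fold, all 8 rod genes were lower, and 6 of 8 Müller glia genes were lower.

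Of the 10 genes, 5 reached 1 FPKM in a library and were compared. Tcf7 was higher in mNRPCs, Nkd1, Dkk3 and Frzb were lower, and Axin2 lay within 2-fold. Of all 13780 genes compared, 24.5% were called higher and 30.0% lower, that is 3371 and 4130 genes, and after rescaling both libraries to a common sum 2639 and 5619. Nkd1 and Frzb passed the minimum of 1 FPKM through retina alone and Tcf7 through mNRPCs alone, so a median over the 5 compared genes is set by the minimum. Over all 10 genes the median log2 ratio was −0.34, and over all genes above 0 in a library it was −0.11. The other 5 genes, Lef1, Rnf43, Sfrp1, Sfrp2 and Sfrp5, stayed under 1 FPKM in both libraries. Of the 10 genes 8 had the lower FPKM value in mNRPCs, and 3 (Nkd1, Sfrp2 and Sfrp5) were listed at 0 there. Of all 31253 genes, 10355 had the lower value in mNRPCs and 8025 the higher, and 16078 were at 0 in mNRPCs. In retina 14196 of all genes were at 0, but 0 of the 10. The counts of the 10 genes therefore cannot be set directly against those of all genes. A listed 0 can be a failed estimate in such files.

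**Figure D1:**
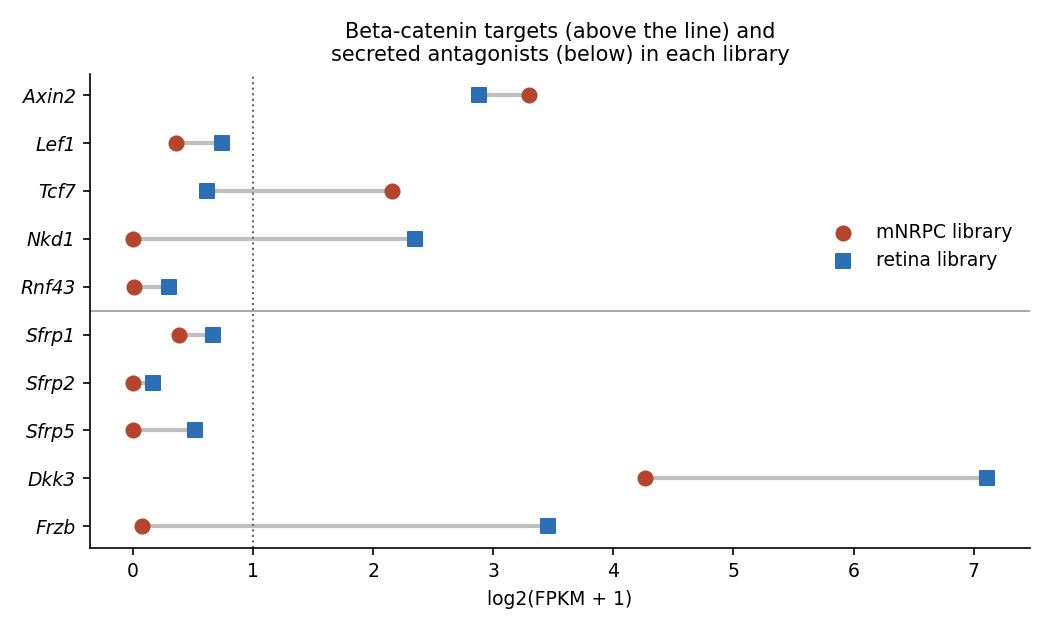
Level of each gene on the log2(FPKM + 1) scale in the mNRPC library (circles) and the retina library (squares), with a grey line joining the 2 values of a gene and a dotted line at 1 FPKM. Tcf7 and Axin2 lie to the right in mNRPCs, and the other 8 genes lie to the right in retina, with Dkk3 the highest in both libraries at 18.3 and 137 FPKM.

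The sequences before 3 start sites are shown because Axin2 is the general feedback target of the pathway and because the transcripts of Lef1 differed in their start. They are the 250 bases upstream of a RefSeq start on the plus strand of build GRCm38.p6, and capitals mark CTTTG, the core that TCF/LEF factors recognise, on either strand. The Axin2 window lies at chr11:108920099-108920348. The Lef1 windows lie at chr3:131110073-131110322, before the upstream start, and at chr3:131112541-131112790, within the longer Lef1 transcripts and before the internal start. None of these windows overlaps an annotated GENCODE exon of its own gene, and exons of other genes were not checked.
Axin2, start at 108920349: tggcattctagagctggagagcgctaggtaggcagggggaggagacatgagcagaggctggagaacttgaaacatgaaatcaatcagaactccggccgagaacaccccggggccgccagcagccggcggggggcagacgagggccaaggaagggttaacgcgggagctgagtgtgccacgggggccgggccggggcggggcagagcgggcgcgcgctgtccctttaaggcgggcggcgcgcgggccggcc
Lef1, upstream start at 131110323: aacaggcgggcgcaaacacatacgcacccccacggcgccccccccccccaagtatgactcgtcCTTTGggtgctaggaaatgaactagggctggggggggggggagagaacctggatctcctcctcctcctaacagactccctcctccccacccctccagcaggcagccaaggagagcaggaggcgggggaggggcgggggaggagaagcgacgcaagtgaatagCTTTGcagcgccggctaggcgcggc
Lef1, internal start at 131112791: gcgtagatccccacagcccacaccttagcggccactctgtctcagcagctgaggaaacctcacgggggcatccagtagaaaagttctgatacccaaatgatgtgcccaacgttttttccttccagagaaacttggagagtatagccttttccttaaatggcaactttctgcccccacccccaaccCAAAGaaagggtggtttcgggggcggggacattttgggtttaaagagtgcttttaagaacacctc

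CTTTG on either strand was found at 2 positions in the upstream Lef1 window (187 and 25 bases before the start), at 1 position in the internal Lef1 window (65 bases before the start) and at 0 positions in the Axin2 window. It is a common word, and 48.6% of 32851 promoter windows of this length held it. Longer forms, which contain the same core, were searched on both strands too. CTTTGAT was present in 3.21% of all windows, CTTTGTT was present in 5.03%, CTTTGAA was present in 4.46% and CTTTGTA was present in 3.20%, and none was in the 3 windows shown. The table holds 13 windows for 8 of the 10 genes, among them 2 more of Lef1. The one before 131110297 held CTTTG at 1 position, and the one before the internal start at 131156294 held it at 3 positions (179, 145 and 119 bases before the start) and held 1 of the longer forms. The match is a description of these letters and says nothing of binding.

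Axin2 (chr11:108917828-108950783) encodes a scaffold of the complex that degrades β-catenin. It had 8.84 FPKM in mNRPCs and 6.39 FPKM in retina, or about 244 and 138 fragments by the depth estimate. The level was close in the 2 libraries, with a log2 ratio of 0.41 and a fold without pseudocount of 1.38 (95% interval 1.12 to 1.72). The direction depended on which transcripts were summed. The curated Axin2 transcript alone had 4.17 FPKM in mNRPCs against 4.51 in retina, which gave a log2 ratio of −0.09. The remaining FPKM came from 4 predicted transcripts, and the largest of these held 27.9% of the gene in mNRPCs and 9.30% in retina. After rescaling both libraries to a common sum the log2 ratio of Axin2 was −0.04. Measured from the all-gene median, the log2 ratio of Axin2 was 0.53 as deposited, 0.57 after rescaling and −0.08 with curated transcripts.

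Tcf7 (chr11:52246527-52283383) encodes a TCF/LEF factor also called TCF-1. It was at 3.47 FPKM in mNRPCs and at 0.530 FPKM in retina, an estimated 55.5 and 6.64 fragments. It was the 1 gene of the set called higher in mNRPCs, with a log2 ratio of 1.55 and a fold without pseudocount of 6.54 (2.92 to 17.5). All of its FPKM was on 1 curated transcript with a coding length of 909 bp, so that isoforms with and without the part that binds β-catenin could not be compared. Its log2 ratio stayed above 1 in the 7 other settings of pseudocount, scaling and transcripts, from 1.47 to 2.71. It was not called higher at a minimum of 5 FPKM or at a threshold of 4-fold.

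Lef1 (chr3:131110297-131224357) encodes another factor of this family. It was at 0.286 FPKM in mNRPCs and at 0.675 FPKM in retina, an estimated 4.92 and 8.87 fragments. The interval of the fold ran from 9.09-fold lower to 1.42-fold higher in mNRPCs, so that a difference was not detectable at this depth. In both libraries most of the Lef1 value lay on the transcript that begins a few bases downstream of the internal start shown above in GENCODE. This transcript has a coding length of 993 bp, against 1191 bp for the full transcript, which begins downstream of the upstream start shown. It held 69.1% of Lef1 FPKM in mNRPCs and 74.9% in retina. The full transcript held 30.9% and 3.04%. These shares rest on an estimated 2.94 and 1.99 fragments in mNRPCs and on 5.89 and 0.363 in retina, so no difference in start use can be read from them.

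Nkd1 (chr8:88521342-88594887), a feedback inhibitor that binds Dishevelled, was listed at 0 in mNRPCs against 4.10 FPKM in retina. The retina value came to an estimated 63.9 fragments, and 96.3% of it was on the transcript with 10 exons. In the mNRPC library 3 fragments of Nkd1 would be 0.151 FPKM. Both of its transcripts were at 0 in mNRPCs. Nkd1 was not compared at a minimum of 5 FPKM. Rnf43 (chr11:87663087-87735539), a ubiquitin ligase that removes Frizzled receptors from the cell surface, was at 0.00585 FPKM in mNRPCs and at 0.229 FPKM in retina. The mNRPC value came to 0.163 fragments, which is under the limit of 3, and the retina value to 5. The targets of the set thus went in both directions, and their FPKM summed to 12.6 in mNRPCs and to 11.9 in retina. Axin2 gave 8.84 and 6.39 FPKM of these sums, of which its curated transcript held 4.17 and 4.51. Which sum is larger therefore depends on the predicted transcripts.

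**Figure D2:**
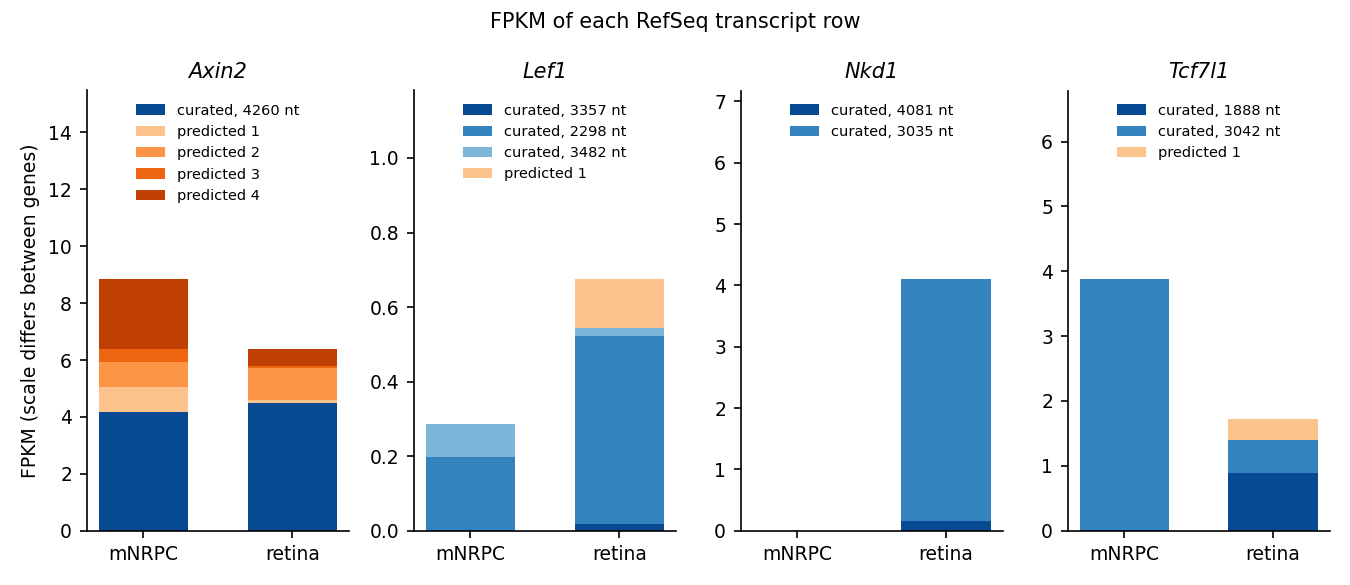
FPKM of each RefSeq transcript, stacked for each gene in the mNRPC and retina libraries, with curated transcripts in blue (named by length in nucleotides) and predicted transcripts in orange. The curated Axin2 transcript was at 4.17 and 4.51 FPKM, Nkd1 was listed at 0 in mNRPCs, and Tcf7l1 was on the 3042-nt transcript in mNRPCs.

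Lef1 and Tcf7 share their DNA motif with Tcf7l1 and Tcf7l2, and because FPKM is per length the 4 genes were set side by side within each library. Their FPKM summed to 8.64 in mNRPCs and to 3.53 in retina. In mNRPCs Tcf7l1, often a repressor of Wnt targets, held 44.9% of this sum (37.0% to 53.0%) and Tcf7 40.2% (32.4% to 48.3%). In retina Tcf7l1 held 48.8% (34.0% to 63.7%) and Tcf7 15.01% (6.32% to 28.3%). Lef1 held 3.31% (1.11% to 7.44%) in mNRPCs and 19.1% (9.17% to 33.1%) in retina. Tcf7l2 held 11.6% (7.05% to 17.7%) and 17.1% (7.73% to 30.8%), and its share was 5.34% and 4.61% with curated transcripts only. These shares describe 1 library each, and a share also moves with the other genes of the sum, so the Lef1 shares, from 4.92 and 8.87 fragments, show no difference in Lef1 level. With the highest transcript of each gene Tcf7 held 43.0% and 22.1%. Tcf7l1 itself had 3.88 FPKM in mNRPCs against 1.72 in retina, a log2 ratio of 0.84. Its transcripts differed. The curated transcript with 12 exons held 99.6% of Tcf7l1 FPKM in mNRPCs and 30.0% in retina, where the curated transcript with 13 exons held 51.2%. The retina shares rest on an estimated 7.96 and 8.45 fragments.

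Dkk3 (chr7:112116019-112159482), a divergent member of the Dickkopf family, was the most abundant gene of the set in both libraries. It was at 18.3 FPKM in mNRPCs and at 137 FPKM in retina, an estimated 397 and 2337 fragments. It ranked 4378 among all genes in mNRPCs and 413 in retina. The mNRPC level of Dkk3 was 13.3% of the retina level, a log2 ratio of −2.84 and a fold without pseudocount of 7.52 lower (6.76 to 8.38). Its log2 ratio lay between −3.38 and −2.84 over all alternatives of pseudocount, scaling and transcripts.

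Frzb (chr2:80411970-80447396), also called Sfrp3, was at 0.0541 FPKM in mNRPCs and at 9.996 FPKM in retina. The mNRPC value came to an estimated 1.10 fragments and the retina value to 160 fragments. The mNRPC level of Frzb was under the limit of 3 fragments, which is 0.147 FPKM for this gene, and so was not detectable at this depth. The log2 ratio was −3.38, and the fold without pseudocount was 185 lower (34.9 to 5491), a wide interval because of the single fragment. With the mNRPC value set at the limit of 3 fragments and no pseudocount, the log2 ratio of Frzb was −6.09.

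Sfrp1, Sfrp2 and Sfrp5 were low in both libraries. Sfrp1 (chr8:23411383-23449632) was at 0.304 FPKM in mNRPCs and at 0.588 FPKM in retina, an estimated 8.61 and 13.0 fragments. The interval of its fold ran from 5.21-fold lower to 1.32-fold higher in mNRPCs, so that no difference was detectable. Sfrp2 (chr3:83765750-83774314) was listed at 0 in mNRPCs against 0.123 FPKM in retina, 1.25 fragments. Sfrp5 (chr19:42197971-42202252) was listed at 0 in mNRPCs against 0.432 FPKM in retina, 4.16 fragments. For Sfrp2 and Sfrp5, 3 fragments in mNRPCs would be 0.231 and 0.244 FPKM.

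The set of secreted antagonists was completed with 12 further genes. The FPKM of all 17 summed to 27.9 in mNRPCs and to 166 in retina. Dkk3 held the largest share in both, 65.5% in mNRPCs (61.6% to 69.3%) and 82.6% in retina (81.2% to 84.0%). The next genes differed between the libraries. In mNRPCs these were Dkk2 with 21.0% (17.8% to 24.4%) and Dkk1 with 8.54% (6.44% to 11.1%), which encode Dickkopf ligands of the LRP co-receptors. In retina they were Igfbp4 with 8.23% (7.25% to 9.31%), an insulin-like growth factor binding protein that can also block Wnt receptors, and Frzb with 6.02% (5.17% to 6.96%). Dkk2 was at 5.84 FPKM in mNRPCs and at 0.0961 FPKM in retina, 1.80 fragments, and its log2 ratio was 2.64. Dkk1 had 2.38 FPKM in mNRPCs, while retina listed it at 0. Igfbp4 was at 0.396 and 13.7 FPKM (log2 ratio −3.39) and Notum at 0.334 (4.35 fragments) and 1.15 FPKM (−0.69). Sostdc1, listed at 0 in mNRPCs, had 1.80 FPKM in retina. Of the 12 further genes 5 were compared, of which 2 were higher and 2 lower, against 24.5% and 30.0% of all genes compared. Dkk1 and Dkk2 passed the minimum of 1 FPKM through mNRPCs alone, and Sostdc1, Notum and Igfbp4 through retina alone. These counts are therefore shaped by the minimum. Wif1, Dkk4, Cer1 and Sost were listed at 0 in both libraries.

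**Figure D3:**
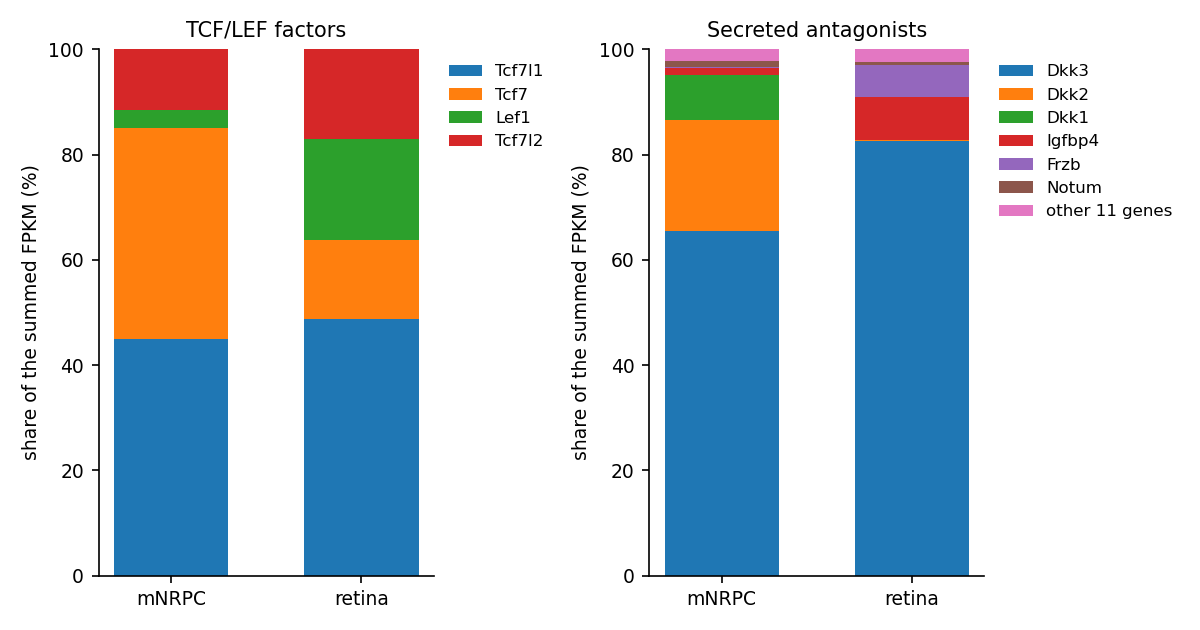
Share of the summed FPKM held by each of 4 TCF/LEF genes (left) and by 17 secreted antagonists (right) in the mNRPC and retina libraries. Tcf7 holds 40.2% in mNRPCs and 15.01% in retina, and Dkk3 is the largest antagonist in both while Dkk2 and Dkk1 are seen in mNRPCs and Igfbp4 and Frzb in retina.

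Of 18 further genes induced by β-catenin in other tissues, 13 were compared, of which 5 were higher in mNRPCs, 3 lower and 5 within 2-fold. Of all genes compared, 24.5% were higher and 30.0% lower. With a pseudocount of 0.1, with none, after rescaling and with upper quartile scaling, 5 were lower. Of all genes 4555, 4573, 5619 and 4416 were lower in these settings, against 4130 without them. With curated transcripts 6 genes of the list were higher and 2 lower (all genes 3366 and 3554). With the highest transcript 5 were higher and 2 lower (all genes 3447 and 3832). The median log2 ratio of the list was 0.13, and it was 0.42 with curated transcripts and 0.48 with the highest transcript. The median was −0.15 with no minimum and 1.199 at a minimum of 5 FPKM. After rescaling it was −0.21, while measured from the all-gene median it was 0.25 as deposited and 0.40 after rescaling. The higher genes were led by Ccnd1, the cyclin of the G1 phase, with 371 FPKM in mNRPCs against 4.26 in retina (log2 ratio 6.14). Cdx2, a homeobox factor of the intestine and trophectoderm, was at 47.3 FPKM in mNRPCs, or about 693 fragments, and was listed at 0 in retina. Cd44, the hyaluronan receptor, was at 99.3 and 2.54 FPKM (4.82). The lower genes were Lgr5, the R-spondin receptor of stem cells, at 0.101 (3.08 fragments) and 8.06 FPKM (−3.04), Prickle1 at 5.03 and 15.01 FPKM (−1.41) and Nrcam at 6.85 and 14.9 FPKM (−1.01). Many of these genes have other inputs, and Ccnd1 also stands in the list of progenitor genes.

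Of 18 genes of the degradation complex and its regulators all were compared, with 2 higher, 5 lower and 11 within 2-fold and a median of 0.10. Of all genes compared, 24.5% were higher and 30.0% lower. Ctnnb1, the gene of β-catenin, had 172 FPKM in mNRPCs against 127 in retina (log2 ratio 0.43). The genes of the kinase that CHIR99021 inhibits were Gsk3a, at 59.4 and 62.9 FPKM (−0.08), and Gsk3b, at 9.71 and 17.6 FPKM (−0.79). Csnk1a1, the casein kinase that primes β-catenin for GSK3, was at 95.01 and 38.7 FPKM (1.27). Of the Dishevelled genes, Dvl2 was at 22.3 and 10.5 FPKM (1.02), Dvl1 at 27.3 and 15.9 (0.74) and Dvl3 at 2.59 and 4.77 (−0.68). Frat1, whose product binds GSK3, was listed at 0 in mNRPCs against 7.24 FPKM in retina, and Frat2 was at 2.38 and 11.7 FPKM (−1.91). Apc was at 5.80 and 21.7 FPKM (−1.74). After rescaling to a common sum 0 of these 18 genes were higher and 8 lower (all genes 2639 and 5619). Their median measured from the all-gene median was 0.22 before rescaling and 0.20 after it. With curated transcripts 3 genes of the list were higher and 3 lower (all genes 3366 and 3554). With the highest transcript 4 were higher and 4 lower (all genes 3447 and 3832).

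Of 15 TCF factors and nuclear partners, again all compared, 4 were higher, 1 lower and 10 within 2-fold, with a median of 0.64. Among the higher genes were Tle1, a corepressor, with 36.8 FPKM in mNRPCs against 11.3 in retina (log2 ratio 1.62), the histone deacetylase Hdac1 at 71.2 and 24.4 (1.51) and Tle5, which is known to oppose other Tle proteins, at 563 and 256 (1.13). Pygo1, a partner of β-catenin, was listed at 0 in mNRPCs and came to 3.899 FPKM in retina, while its paralogue Pygo2 was higher in mNRPCs at 40.05 and 18.2 FPKM (1.10). Tle4 was at 9.26 and 16.5 FPKM (−0.77) and Bcl9l at 4.90 and 6.16 (−0.28). Tcf7l2 was at 1.001 and 0.603 FPKM (0.32). After rescaling 2 of the 15 genes were higher and 2 lower, while their median measured from the all-gene median was 0.76 before and 0.85 after it. Of 10 genes of antagonist receptors and the R-spondin axis 5 were compared, and all 5 lay within 2-fold on the log2(FPKM + 1) scale. Lrp5 and Lrp6, the co-receptors that Dickkopf proteins bind, had log2 ratios of −0.48 and −0.24, Kremen1 0.75, Lgr4 0.53 and Lgr6 0.92. The call of Lgr6, at 1.02 FPKM in mNRPCs and 0.0678 FPKM (2.29 fragments) in retina, depended on the scale. Its fold without pseudocount was 15.1 (4.23 to 105), and 1 gene of this list was higher with a pseudocount of 0.1, with none and after rescaling. Over the 5 lists together, 13 of 56 compared genes were higher (23.2%) and 11 lower (19.6%), against 24.5% and 30.0% of all genes. The counts moved with a scaling that moves all genes. They were 10 higher and 18 lower after rescaling to a common sum (all genes 2639 and 5619) and 11 and 13 with upper quartile scaling (all genes 3124 and 4416). Measured from the all-gene median, the median of the lists was 0.42 as deposited, 0.46 after rescaling and 0.44 with upper quartile scaling. With curated transcripts the counts were 17 and 8 (all genes 3366 and 3554), and the median of the lists measured from the all-gene median was 0.44.

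**Figure D4:**
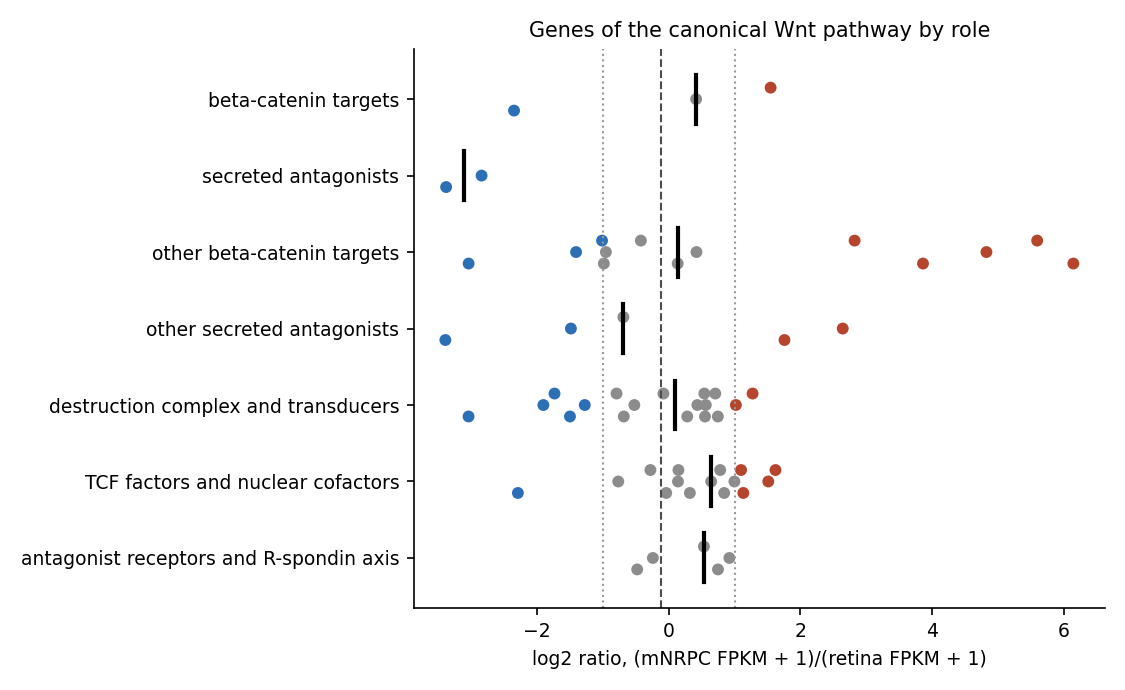
Log2 ratio of each compared gene by role in the pathway, with red for at least 2-fold higher in mNRPCs, blue for at least 2-fold lower and grey for within 2-fold. Black bars are list medians, the dashed line is the median of all genes (−0.12) and dotted lines are the 2-fold limits. Dkk3 and Frzb, the compared antagonists of the set, lie to the left, the other lists of targets and antagonists lie on both sides, and the receptor list lies within the limits with this pseudocount of 1, where Lgr6 is at 0.92.

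Markers of cell types in retina tissue differed between the libraries, and in bulk RNA fewer cells of a type and less RNA per cell cannot be told apart. Of the 8 Müller glia genes, which express Dkk3 in the retina by background knowledge, 6 were lower in mNRPCs. Glul, which encodes glutamine synthetase, had 31.4 and 897 FPKM, or 3.49% of the retina level, and Clu at 32.6 and 331 FPKM, or 9.87%. Rlbp1 had 0.0986 FPKM in mNRPCs, or 1.37 fragments, under its limit of 3 fragments, against 202 FPKM in retina, and Kcnj10 was listed at 0 in mNRPCs. Vim and Sox9 were higher in mNRPCs, and because of Vim the summed level of the list was 3216 FPKM in mNRPCs and 1617 in retina. Dkk3, at 13.3%, lay above all 6 lower Müller genes. The sums of the other lists were 7.88 and 20487 FPKM for 8 rod genes (0 at 0 in mNRPCs), 0.444 and 111 FPKM for 9 pigment epithelium genes (5 at 0 in mNRPCs), 0.107 and 14.5 for 4 astrocyte genes (2 at 0), 1.03 and 47.8 for 6 endothelial genes (2 at 0) and 0.00796 and 4.93 for 5 microglia genes (4 at 0). They were 19.8 and 19.3 FPKM for 9 fibroblast and pericyte genes (2 at 0), 809 and 158 for 6 progenitor genes (0 at 0) and 42.4 and 868 for 10 genes of inner retinal neurons (2 at 0). Of the last sum in mNRPCs, 31.3 FPKM came from Tfap2a, which was higher there (7.08 FPKM in retina). The part of these cell types in the levels of Dkk3, Frzb, Nkd1 and Igfbp4 was not tested.

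**Figure D5:**
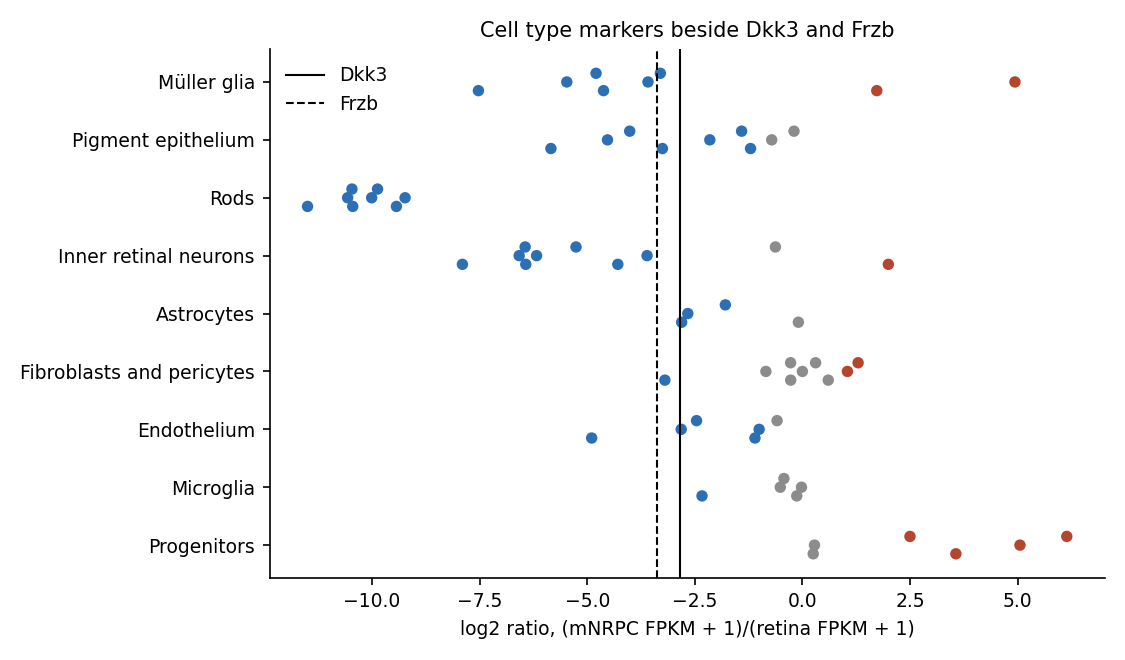
Log2 ratio of each cell type marker, coloured as for the pathway genes, with the ratios of Dkk3 (solid line, −2.84) and Frzb (dashed line, −3.38). Of the 8 Müller glia genes 6 lie to the left of the Dkk3 line, the rods lie far to the left and the progenitor genes lie at or above 0.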

How the data were processed

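The deposited table holds FPKM values that the authors calculated for each RefSeq transcript in the 2 libraries. The submitters' processing notes name TopHat2 2.0.10 and build GRCm38.p3, while the study's methods describe Bowtie 2 and the program eXpress for its RNA sequencing, and name another sequencer than the series text. Reads shared between transcripts are assigned by a model, which makes gene sums firmer than transcript shares.

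Accessions were matched without version to the RefSeq gene table of GRCm38.p6 and then to GENCODE M21, which named 74283 of 106754 rows (93.2% of mNRPC and 89.9% of retina FPKM). Patch releases leave chromosome coordinates unchanged. Values below 1e-06 were read as 0. Depth was taken from the peak, within a range set after the values were seen, of the depth at which a value would be 1 fragment, over 6228 curated transcripts of at least 1500 bp that were alone in their gene. With at least 500 bp it was 6.4e+06 and 4.9e+06 fragments, with at least 2500 bp 6.44e+06 and 5.5e+06. Predicted transcripts took the longest known length of their gene. Fragment numbers are therefore estimates, and no count test was made.

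The 10 genes and the lists were chosen with earlier results of these data known. Of each pathway list up to 3 higher and 3 lower genes of the largest log2 ratio with at least 1 FPKM were named, besides Ctnnb1, Gsk3a, Gsk3b, Tcf7l1 and Tcf7l2. Of each cell type list the rule allowed the 3 highest genes in retina and 2 in mNRPCs. Only Müller genes are named from these lists by the rule, and Dvl3, Pygo2, Kcnj10, Sox9, Tfap2a, Wif1, Dkk4, Cer1 and Sost were added after their values were seen. Promoter sequences are from RefSeq (8 of 10 genes matched). Alternatives changed the pseudocount, minimum, fold, scaling and transcripts. Python 3.11.15, pandas 2.3.3 and SciPy 1.17.1 were used, and the scripts were tested on simulated data.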

Additional observations from a re-analysis of the deposited data

How the results depend on the processing

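No gene of the set that was past 2-fold changed direction under the alternatives of pseudocount, scaling and transcripts. Of 70 such values for the 10 genes, 50 were within counting error and 20 moved. Axin2, within 2-fold, changed sign with curated transcripts or the highest transcript (−0.09) and after rescaling to a common sum (−0.04). The median of the compared genes of the set moved from −2.35 to −2.90 with a pseudocount of 0.1, −2.91 with low values at the limit of 3 fragments and no pseudocount, −3.38 after rescaling, −2.84 at a minimum of 5 FPKM and −0.34 with no minimum, as 5 genes near 0 then entered. At 5 FPKM, and at a threshold of 4-fold, 0 genes of the set were higher, since Tcf7 did not pass either. At 5 FPKM the lower genes went from 3 to 2, as Nkd1 no longer entered. Of all genes 2879 were higher and 2774 lower at this minimum, against 3371 and 4130 at 1 FPKM. The 4-fold threshold left 6 higher and 4 lower genes of the pathway lists, and 1547 and 1942 of all genes. Rescaling gave 10 higher and 18 lower genes in the lists and turned their median from 0.30 to −0.14, which relative to all genes was 0.42 and 0.46. The median of all genes went from −0.12 to −0.61, and the higher share of called genes went from 44.9% to 31.96% (2639 higher and 5619 lower). With curated transcripts the share of Tcf7l2 was 5.34% in mNRPCs and 4.61% in retina, and with the highest transcript 6.61% in mNRPCs and 19.998% in retina. Among antagonists in mNRPCs, Dkk3 held 70.3% and Dkk2 16.98% with curated transcripts, and 69.9% and 16.9% with the highest transcript. Notum in retina held 0.327% in both. The median of the compared genes among the 12 further antagonists turned from −0.69 to 0.13 in these 2 settings. Notum, the middle gene at −0.69, then fell under 1 FPKM and left the comparison. The new median lay midway between Dkk1 (1.76) and Sostdc1 (−1.49). For the changes in shares the cause was not tested. Depth limits Nkd1, Lef1, Rnf43, Sfrp1, Sfrp2, Sfrp5 and Frzb in mNRPCs, each with fewer than 9 estimated fragments there. No paired analysis was possible because there was a single library of either kind.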

Other observations

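Cdx2 stood out among the pathway genes and was looked at further after its values were seen. Its 47.3 FPKM placed it at rank 1844 of all genes in mNRPCs, above Dkk3, and all of this was on its 1 curated transcript. The related genes Cdx1 and Cdx4, and T, the brachyury gene of early mesoderm, were listed at 0 in both libraries. For Cdx1 3 fragments would be 0.265 FPKM in mNRPCs. No explanation was tested.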
